A study of Mus musculus with 24 samples.

Results

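The replication-dependent histone genes encode the core histones H2A, H2B, H3 and H4 and the linker histones H1 that package new DNA during S phase. They were chosen here by symbol, as every gene whose symbol in the array's probe annotation is H1f1 to H1f6 or H2ac, H2bc, H3c or H4c with a number, and which had a probe set naming that gene alone. Of 63 such symbols 26 had a probe set of their own, out of 22180 genes measured this way: 5 H1, 6 H2A, 8 H2B and 7 H4 genes. The other 37 symbols, including all 12 of H3, appeared only in probe sets that name several near-identical copies, and those are described apart, as probe sets. The rule used symbols and the mean over all arrays, not a difference between groups, but the family was chosen with earlier results of these data known.

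The values come from Affymetrix arrays of cells that were pulled from dissociated tissue with magnetic beads against Cd144 and Cd105, surface proteins of endothelium. There were 8 arrays from Wnt medulloblastomas of mice with Blbp-Cre and the alleles Ctnnb1 +/Exon3 flox, with Trp53 flox/flox and with Pik3ca +/flox, 8 from Shh medulloblastomas of Ptch+/- and Ink4c-/- mice and 8 from wild-type adult hindbrain. All mice had a mixed strain background, and an age class is stated for the hindbrain alone. In the Wnt model Cre is driven by Blbp, a gene of neural progenitors and radial glia, while the alleles of the Shh model are written as those of the whole animal. The comparison of tumour with hindbrain asks how vessel cells of each tumour differ from those of normal tissue, and Wnt minus Shh asks how the tumours differ from each other.

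Replication-dependent histone genes lie in clusters, have no introns, and are transcribed almost only while DNA is being copied. Their mRNA ends in a stem loop bound by Slbp in place of a poly(A) tail and is destroyed when S phase ends, so its level follows the share of cells in S phase and the rate of synthesis. Quiescent endothelium, the state of most adult brain vessels, is known for little of it. Linker histones bind where DNA enters and leaves the nucleosome, H2A and H2B form dimers on its outside, and H4 pairs with H3 at its centre. Among the 26 genes, 21 lay on chromosome 13 and 5 on chromosome 3 (H2ac20, H2ac21, H2bc18, H2bc21 and H4c14), in the RefSeq table of build GRCm38.p6.

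The promoters of 24 of the 26 genes were available from RefSeq, and stretches of 5 are shown because they set genes that differed strongly between groups beside relatives that did not. Each is the 150 bases before the annotated start, 5′ to 3′ on the gene's own strand. Capitals mark matches, on either strand, to 5 motifs. These are the TATA box TATAAA and the NF-Y box CCAAT. The others are the octamer ATTTGCAT bound by Oct1, the element AAACACA of H1 promoters, and TTTCCCGC, a site of E2F factors. H1f5 lies at chr13:21780626-21780775, minus strand, and was higher in both tumours. H1f2 lies at chr13:23738657-23738806, plus strand, and was called higher against hindbrain in Shh. H2bc12 at chr13:22035671-22035820 and H2bc3 at chr13:23746584-23746733, both on the plus strand, were higher in both tumours. H2bc14 at chr13:21721894-21722043, plus strand, was called in no comparison, but its signal was dim in all groups, which limits what that shows.
H1f5: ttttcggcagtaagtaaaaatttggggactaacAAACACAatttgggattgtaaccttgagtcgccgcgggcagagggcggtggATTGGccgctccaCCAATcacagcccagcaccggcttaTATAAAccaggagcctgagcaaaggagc
H1f2: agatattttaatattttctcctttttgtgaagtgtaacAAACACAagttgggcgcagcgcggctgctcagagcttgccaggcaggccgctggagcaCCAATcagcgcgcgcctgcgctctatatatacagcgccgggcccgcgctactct
H2bc12: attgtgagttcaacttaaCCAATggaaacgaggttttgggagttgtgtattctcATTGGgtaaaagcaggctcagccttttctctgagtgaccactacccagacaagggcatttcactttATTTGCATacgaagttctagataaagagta
H2bc3: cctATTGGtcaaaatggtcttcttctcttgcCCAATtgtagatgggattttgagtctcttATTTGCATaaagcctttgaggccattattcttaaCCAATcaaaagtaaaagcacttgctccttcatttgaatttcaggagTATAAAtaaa
H2bc14: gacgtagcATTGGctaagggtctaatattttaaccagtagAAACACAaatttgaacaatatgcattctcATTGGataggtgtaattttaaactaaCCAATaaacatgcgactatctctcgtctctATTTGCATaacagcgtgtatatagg

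In the 250 bases before the start, searched on both strands, CCAAT was found in all 5 H1, all 6 H2A and all 7 H2B promoters and in 1 of 6 H4 promoters, against 33.8% of all promoters in the table. The octamer ATTTGCAT was found in 5 of 7 H2B and 3 of 6 H2A promoters and in 0 of 5 H1 and 0 of 6 H4 promoters, against 1.6% of all promoters. AAACACA was found in 4 of 5 H1 promoters, in 1 of 6 H2A and 2 of 7 H2B promoters, and in 0 of 6 H4 promoters, against 6.25% of all promoters. TATAAA was found in 3 of 5 H1, 3 of 6 H2A, 4 of 7 H2B and 3 of 6 H4 promoters, against 12.4% of all promoters. TTTCCCGC was found in the H4c1 promoter alone, with 4 matches, against 0.895% of all promoters. No motif overlapped another in these windows. The octamer stood in the promoters of H2bc3 and H2bc12, both higher in tumours, and in those of H2bc1, H2bc14 and H2bc18, which were not called. Of these H2bc1 and H2bc14 were dim in all groups, so the lack of a call says little about them. H2bc12 and H2ac12 are divergent neighbours whose promoter windows shared 277 bases on opposite strands, and those of H2ac1 and H2bc1 shared 220. A motif in shared bases counts for both genes above. The octamers of H2ac12 and H2bc12 were the same site. So were the octamers of H2ac1 and H2bc1, and the AAACACA matches of that pair. H2bc12 was higher in both tumours and H2ac12 was dim in all groups, as read from the 1 probe set that names it alone.

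Array medians over all probe sets lay between 5.97 and 6.18 on the log2 scale. As a gauge of background, 92 probe sets for ERCC spike-in controls, absent from the mouse genome, had means with a 95th percentile of 5.24, and 9 of the 26 histone genes had a mean over all arrays below it. Of the 16 endothelial markers all were called lower in Wnt than in hindbrain and 3 in Shh than in hindbrain. Their mean per array ran from 9.81 to 11.10 in Wnt, 11.28 to 11.79 in Shh and 11.51 to 11.89 in hindbrain arrays. All 7 measured microglia markers were called lower in both tumours than in hindbrain, and 6 of 7 fibroblast markers higher. Over all genes 22% were called lower and 23.2% higher in Wnt, and 18.9% each in Shh. Genes with an adjusted p below 0.05 (limma, Benjamini-Hochberg over all genes) were called, ± marks the standard error of a log2 difference, and per-group values are the lowest, median and highest of 8 arrays. In sorted bulk RNA, a smaller number of cells of a type and less RNA per cell cannot be told apart.

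In cells sorted from Wnt tumours 9 of 26 histone genes were higher than in hindbrain (background 23.2% of all genes higher), 2 were lower (background 22%) and 15 were not called, so 11 were called in either direction (background 45.3%). In cells sorted from Shh tumours 13 were higher (background 18.9%), 2 were lower (background 18.9%) and 11 were not called, so 15 were called in either direction (background 37.8%). The 9 genes higher in Wnt were all higher in Shh too: the linker histones H1f1 and H1f5, the H2A genes H2ac10, H2ac15 and H2ac21, the H2B genes H2bc3 and H2bc12, and the H4 genes H4c12 and H4c17. H1f2, H1f3, H2ac20 and H2bc9 were called higher in Shh and not in Wnt, and of these H1f2 and H1f3 differed between the tumours as well. In contrast H4c1 and H4c14 were lower in both tumours. The tumour comparisons share the hindbrain arrays. The median log2 fold change of the 26 was 0.10 in Wnt, against -0.02 over all genes, and 0.48 in Shh, against -0.02 over all genes. The Wnt median turned to -0.017 with arrays shifted to a common median. That shift lowers the median over all genes by the same 0.11, so the gap between the 26 and all genes stays the same. With the endothelial marker mean as a covariate the Wnt median was -0.24, and no median over all genes is given for that fit. Marker means in Wnt and hindbrain arrays did not overlap, so the value with the covariate is an extrapolation. Without the 9 genes below the ERCC 95th percentile the medians were 0.26 in Wnt and 0.96 in Shh. That filter used the mean over all arrays, so H1f1, H1f5 and H2ac15, dim in hindbrain, were kept for their tumour values. Part of the larger medians is thus built in, and no median over all genes is given under this filter. By class, 2 of 5 H1, 3 of 6 H2A, 2 of 8 H2B and 2 of 7 H4 genes were higher in Wnt, and 4 of 5 H1, 4 of 6 H2A, 3 of 8 H2B and 2 of 7 H4 genes in Shh. All 8 tumour arrays lay above all 8 hindbrain arrays for 7 genes in Wnt (background 10.6%) and 8 in Shh (background 7.13%), and below them for 0 genes in Wnt (background 9.42%) and 0 in Shh (background 5.55%). Shifting each array to a common median lowers every Wnt minus hindbrain difference by 0.11 and every Shh minus hindbrain difference by 0.088.

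**Figure D1:**
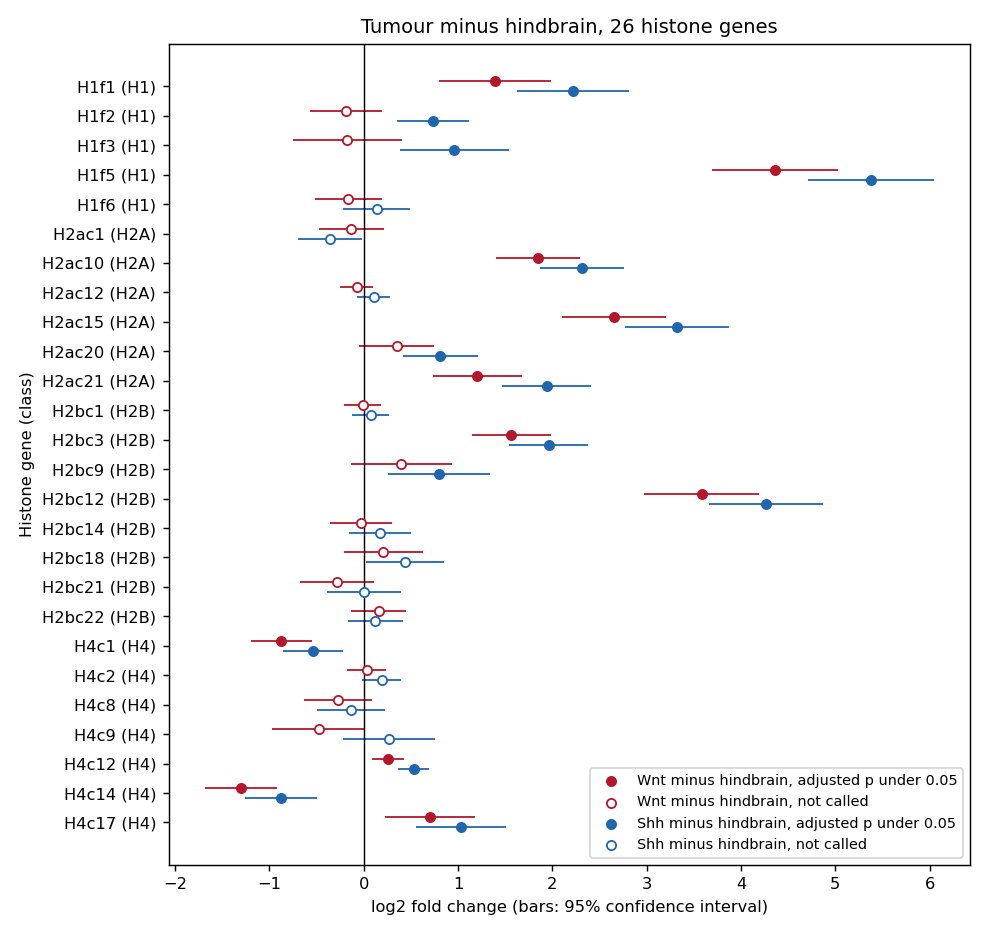
Log2 fold change of each of 26 histone genes (rows, with class) for Wnt minus hindbrain (red) and Shh minus hindbrain (blue), with 95% confidence intervals; filled points have an adjusted p under 0.05 and open points do not. H1f5, H2bc12 and H2ac15 lie farthest to the right, at 4.36, 3.58 and 2.65 in Wnt and 5.38, 4.27 and 3.32 in Shh, and H4c14 and H4c1 lie left of 0 in both.

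Among the linker histones, H1f5 was near background in hindbrain and well above it in every tumour array. It ranged from 7.04 through a median of 8.79 to 9.67 in Wnt arrays, from 8.56 through 9.6 to 10.75 in Shh arrays and from 3.67 through 4.28 to 4.82 in hindbrain arrays. Every tumour array lay above every hindbrain array, and all hindbrain values lay below the ERCC 95th percentile. The fitted log2 differences were 4.36 ± 0.32 in Wnt (adjusted p = 4.71e-11) and 5.38 ± 0.32 in Shh (adjusted p = 5.86e-12). With hindbrain arrays below that percentile set to it, H1f5 was at least 10.5-fold higher in Wnt and at least 21.4-fold higher in Shh. H1f1 ranged from 4.67 through 5.70 to 6.58 in Wnt, 5.39 through 6.79 to 7.55 in Shh and 4.07 through 4.32 to 4.55 in hindbrain arrays. Again no tumour array overlapped the hindbrain arrays, with Wnt replicate 4 and Shh replicate 3 the lowest of their groups. The differences were 1.39 ± 0.29 in Wnt (adjusted p = 0.000264) and 2.21 ± 0.29 in Shh (adjusted p = 1.35e-06). All 8 hindbrain arrays were below the ERCC percentile here too, and the bounds were at least 1.41-fold higher in Wnt and at least 2.49-fold higher in Shh.

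H1f2 and H1f3 were called higher in Shh and not in Wnt. H1f2 ranged from 8.69 through 9.0 to 9.69 in Wnt, 9.28 through 10.03 to 10.75 in Shh and 8.60 through 9.33 to 9.80 in hindbrain arrays. In Shh 6 of 8 arrays lay above all hindbrain arrays, and in Wnt 0 did. H1f2 differed by -0.19 ± 0.19 in Wnt (95% interval -0.57 to 0.20, adjusted p = 0.453) and rose by 0.73 ± 0.19 in Shh (adjusted p = 0.00278). H1f3 ranged from 5.01 through 5.48 to 7.04 in Wnt, 5.76 through 6.92 to 7.67 in Shh and 5.28 through 5.76 to 6.43 in hindbrain arrays, and Wnt replicate 1 stood alone at the top of its group. It differed by -0.17 ± 0.28 in Wnt (adjusted p = 0.658) and rose by 0.96 ± 0.28 in Shh (adjusted p = 0.00851). H1f6, the linker histone of the testis, averaged 4.72 in Wnt, 5.03 in Shh and 4.89 in hindbrain arrays, all below the ERCC 95th percentile, and was not called.

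**Figure D2:**
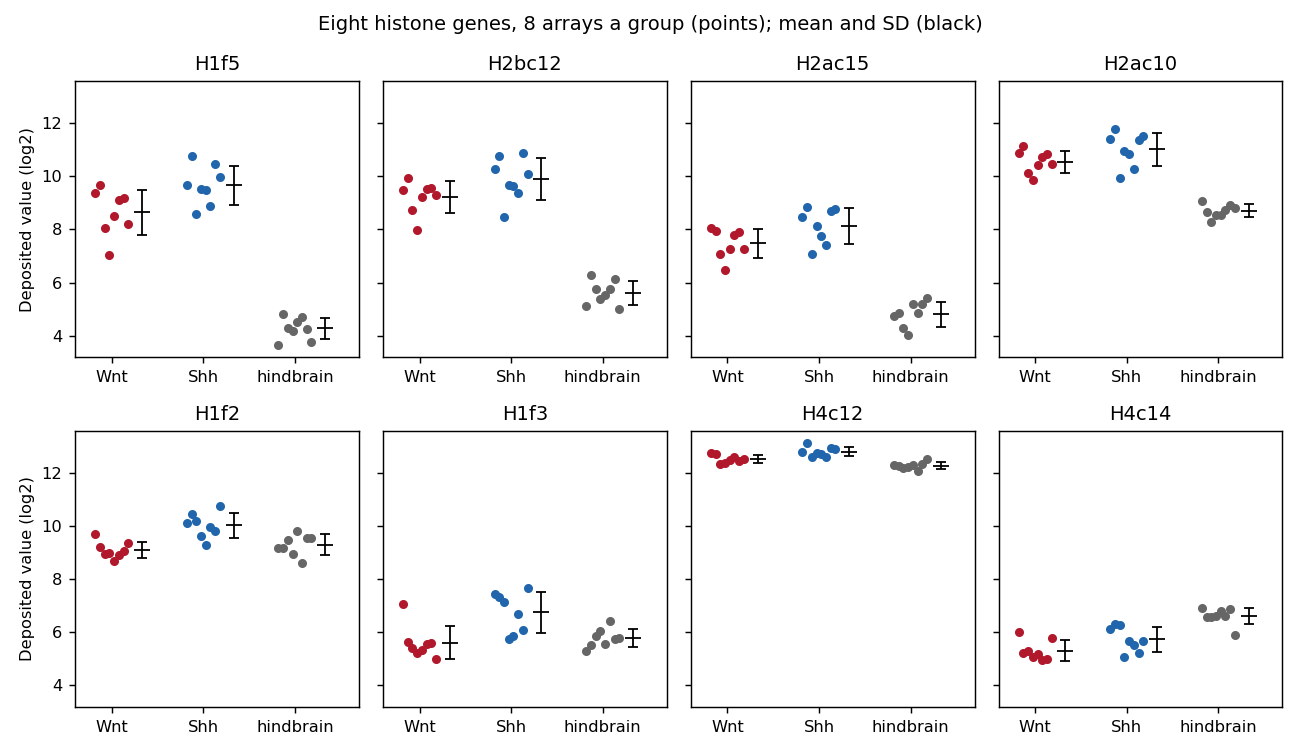
Deposited log2 values of 8 histone genes in each array (points; 8 arrays per group; Wnt left, Shh middle, hindbrain right), with the group mean and SD in black. For H1f5, H2bc12, H2ac15 and H2ac10 every tumour array lies above every hindbrain array; H1f2 and H1f3 are called higher in Shh and not in Wnt, and H4c14 is lower in both tumours.

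Among the 6 H2A genes, H2ac15 ranged from 6.46 through 7.53 to 8.07 in Wnt, 7.06 through 8.29 to 8.85 in Shh and 4.04 through 4.84 to 5.40 in hindbrain arrays. The groups did not overlap, and the fitted differences were 2.65 ± 0.27 in Wnt (adjusted p = 9.17e-09) and 3.32 ± 0.27 in Shh (adjusted p = 7.49e-10). As 7 of 8 hindbrain arrays lay below the ERCC 95th percentile, H2ac15 was at least 4.62-fold higher in Wnt and at least 7.33-fold higher in Shh. H2ac10 ranged from 9.85 through 10.58 to 11.11 in Wnt, 9.95 through 11.17 to 11.79 in Shh and 8.29 through 8.68 to 9.08 in hindbrain arrays. It was higher in every tumour array, by 1.85 ± 0.22 in Wnt (adjusted p = 1.05e-07) and 2.31 ± 0.22 in Shh (adjusted p = 1e-08). H2ac21, on chromosome 3, ranged from 7.58 through 8.25 to 9.0 in Wnt, 8.27 through 9.03 to 9.64 in Shh and 6.47 through 7.06 to 7.57 in hindbrain arrays, again without overlap. Its rises were 1.20 ± 0.23 in Wnt (adjusted p = 9.69e-05) and 1.94 ± 0.23 in Shh (adjusted p = 3.19e-07), while a second, dimmer probe set for the gene differed by 0.05 in Wnt and 0.02 in Shh.

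The other 3 H2A genes were dim or less different. H2ac20 ranged from 4.60 through 5.12 to 5.66 in Wnt, 4.64 through 5.66 to 6.42 in Shh and 4.53 through 4.75 to 5.42 in hindbrain arrays. In Shh 6 of 8 arrays lay above all of hindbrain, and the difference was 0.81 ± 0.19 (adjusted p = 0.00167), against 0.35 ± 0.19 in Wnt (adjusted p = 0.148). In hindbrain 7 of 8 arrays were below the ERCC percentile, and the Shh bound was at least 1.25-fold higher. A bright shared probe set that names H2ac18, H2ac19 and H2ac20, averaging 11.12 over all arrays, was called higher in both tumours. Its rises were 0.48 ± 0.16 in Wnt (adjusted p = 0.0194) and 0.47 ± 0.16 in Shh (adjusted p = 0.0253), and it does not separate the 3 genes. H2ac1, a testis H2A in mouse, ranged from 5.52 to 6.29 in Wnt, 4.90 to 6.28 in Shh and 5.64 to 6.43 in hindbrain arrays and was not called, with -0.13 ± 0.17 in Wnt and -0.36 ± 0.17 in Shh. H2ac12 lay between 2.39 and 2.92 in Wnt, 2.50 and 2.91 in Shh and 2.48 and 3.03 in hindbrain arrays, at the bottom of the scale in every array.

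Among the H2B genes, H2bc12 ranged from 7.96 through 9.38 to 9.92 in Wnt, 8.46 through 9.88 to 10.88 in Shh and 4.99 through 5.64 to 6.28 in hindbrain arrays. The lowest tumour array lay above the highest hindbrain array by more than the whole spread of the hindbrain group. The rises were 3.58 ± 0.29 in Wnt (adjusted p = 2.98e-10) and 4.27 ± 0.29 in Shh (adjusted p = 5.85e-11). With the 2 hindbrain arrays below the ERCC 95th percentile set to it, H2bc12 was at least 11.6-fold higher in Wnt and at least 18.6-fold higher in Shh. H2bc3 ranged from 8.36 through 9.40 to 9.75 in Wnt, 8.87 through 9.65 to 10.46 in Shh and 7.46 through 7.66 to 8.06 in hindbrain arrays. No array overlapped, and the rises were 1.56 ± 0.20 in Wnt (adjusted p = 5.43e-07) and 1.96 ± 0.20 in Shh (adjusted p = 4.84e-08). H2bc9 had means below the ERCC 95th percentile in all groups and so gets no fold, at 3.64 through 4.45 to 5.47 in Wnt, 3.94 through 4.87 to 5.99 in Shh and 3.70 through 4.08 to 4.55 in hindbrain arrays. Its rise of 0.80 ± 0.26 in Shh was called (adjusted p = 0.0178), and 0.40 ± 0.26 in Wnt was not (adjusted p = 0.231). The Shh call was lost with the endothelial marker mean as a covariate (adjusted p = 0.0521).

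The 5 remaining H2B genes were not called in any comparison. H2bc18 averaged 7.49 in Wnt, 7.72 in Shh and 7.28 in hindbrain arrays, with a Shh difference of 0.44 ± 0.20 (adjusted p = 0.0909). H2bc21 averaged 6.03 in Wnt, 6.31 in Shh and 6.31 in hindbrain arrays, and hindbrain replicate 8, at 7.5, lay above every other array. H2bc14, H2bc22 and the testis gene H2bc1 had means below the ERCC 95th percentile. So 5 of 8 H2B genes showed no called difference while H2bc12 and H2bc3 rose in both tumours.

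The H4 genes split in direction, although H4 copies encode the same protein. H4c12 ranged from 12.31 through 12.49 to 12.73 in Wnt, 12.58 through 12.74 to 13.10 in Shh and 12.05 through 12.26 to 12.49 in hindbrain arrays. Shh and hindbrain did not overlap, and 4 of 8 Wnt arrays lay above all of hindbrain. The rises were 0.26 ± 0.08 in Wnt (adjusted p = 0.0104) and 0.53 ± 0.08 in Shh (adjusted p = 1.26e-05). The Wnt call was lost when arrays were shifted to a common median, with 0.15 and an adjusted p of 0.095. H4c17 ranged from 5.16 through 6.28 to 6.71 in Wnt, 5.73 through 6.55 to 7.62 in Shh and 5.11 through 5.54 to 6.04 in hindbrain arrays. In each tumour 6 of 8 arrays lay above all of hindbrain, and the rises were 0.70 ± 0.23 in Wnt (adjusted p = 0.0148) and 1.03 ± 0.23 in Shh (adjusted p = 0.00093).

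H4c14 and H4c1 went the other way. H4c14, on chromosome 3, ranged from 4.95 through 5.21 to 6.0 in Wnt, 5.08 through 5.67 to 6.30 in Shh and 5.90 through 6.61 to 6.90 in hindbrain arrays. In Wnt 7 of 8 arrays and in Shh 5 of 8 lay below every hindbrain array, where replicate 8 stood alone at the bottom. H4c14 changed by -1.30 ± 0.19 in Wnt (adjusted p = 2.25e-06) and -0.88 ± 0.19 in Shh (adjusted p = 0.000547). H4c1 ranged from 4.67 through 5.14 to 5.68 in Wnt, 5.02 through 5.33 to 6.02 in Shh and 5.54 through 6.02 to 6.41 in hindbrain arrays, so most but not all tumour arrays lay below the hindbrain range. It changed by -0.87 ± 0.15 in Wnt (adjusted p = 4.16e-05) and -0.54 ± 0.15 in Shh (adjusted p = 0.00719). Some tumour arrays lay below the ERCC 95th percentile, in Wnt 5 of 8 for H4c14 and 6 of 8 for H4c1. With those set to it, H4c14 was at least 2.3-fold lower in Wnt and 1.81-fold lower in Shh, and H4c1 at least 1.6-fold lower in Wnt and 1.42-fold lower in Shh. H4c9, with -0.48 ± 0.24 in Wnt and 0.27 ± 0.24 in Shh, and the dim H4c2 and H4c8 were not called against hindbrain. All 7 H4 genes, and 14 of the 26 genes in all, are named in shared probe sets too, so a signal read as one copy may hold that of another.

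**Figure D3:**
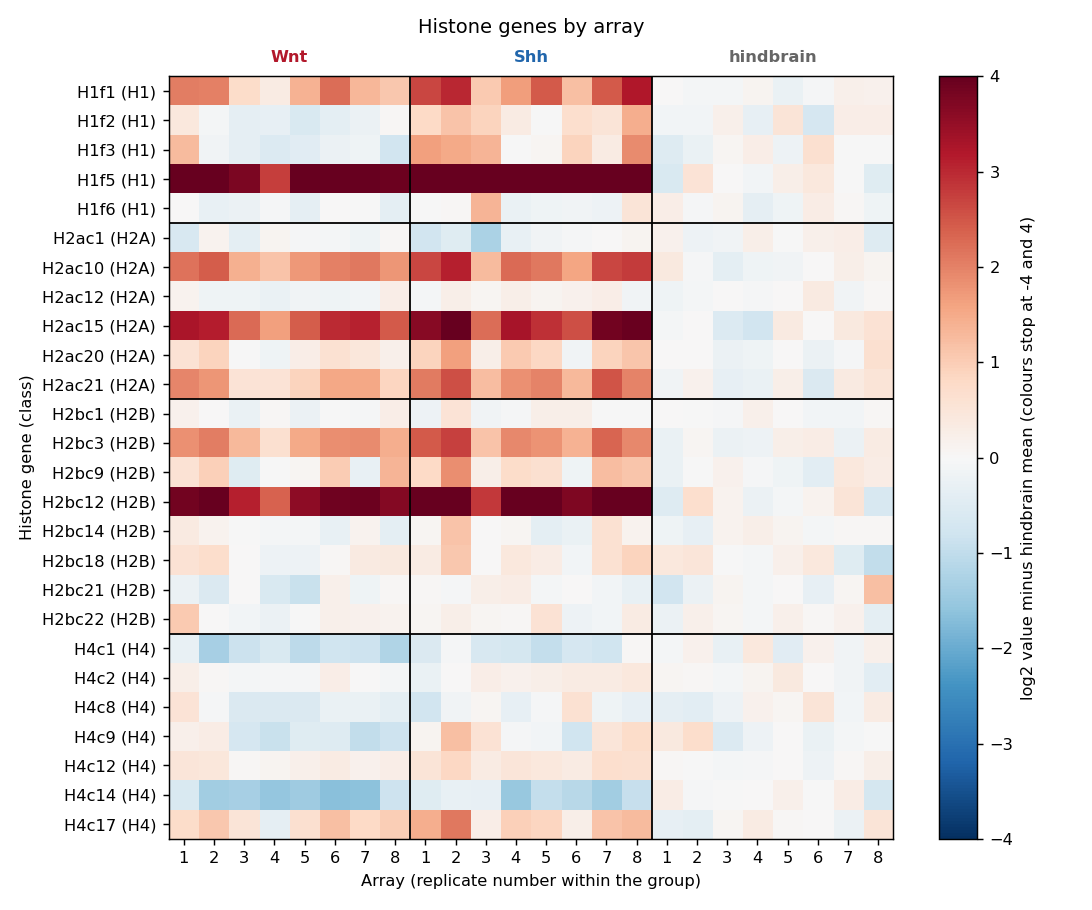
Log2 value of each histone gene (rows, grouped by class) in each of 24 arrays minus its mean over the hindbrain arrays; red is above and blue below that mean, and colours stop at -4 and 4. Red rows are those of H1f1, H1f5, H2ac10, H2ac15, H2ac21, H2bc3 and H2bc12, paler in Wnt replicate 4 and Shh replicate 3, and the rows of H4c1 and H4c14 are blue in most tumour arrays.

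Between the tumours, 7 of 26 histone genes were lower in Wnt than in Shh (background 17.8% lower) and 0 were higher by limma (background 18%), also at an unadjusted p under 0.05, so 7 were called in either direction (background 35.8%). The median difference of the 26 was -0.36, against -0.0019 over all genes. The 7 were 4 of the 5 linker histones, H1f1 (-0.82 ± 0.29, adjusted p = 0.0273), H1f2 (-0.92 ± 0.19, adjusted p = 0.000304), H1f3 (-1.14 ± 0.28, adjusted p = 0.00225) and H1f5 (-1.02 ± 0.32, adjusted p = 0.0148), with H2ac21 (-0.74 ± 0.23, adjusted p = 0.0128), H4c9 (-0.75 ± 0.24, adjusted p = 0.0149) and H4c12 (-0.27 ± 0.08, adjusted p = 0.0104). Of the 8 H2B genes 0 were called by limma, and 1 was lower at an unadjusted p under 0.05. For 0 of the 26 were the tumour groups free of overlap (background 4.32% lower and 5.8% higher), although 7 of 8 Wnt arrays lay below all Shh arrays for H1f3 and 6 of 8 for H1f2. H4c9 ranged from 5.49 through 5.87 to 6.78 in Wnt and from 5.67 through 6.77 to 7.67 in Shh arrays. Leaving out Shh replicate 3 raised the count of lower genes to 12, and the H1f1 call was lost without Wnt replicate 3 or 4 or Shh replicate 1, 2 or 8, or in a fit to the tumour groups alone (adjusted p = 0.0751). H2ac21 lost its call with the mean of its probe sets (adjusted p = 0.0723) and H4c9 with the endothelial covariate (adjusted p = 0.0754). The block by replicate number gave 11 lower genes.

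Wnt replicate 4 was the lowest of its group in 8 of the 9 genes higher in both tumours and Shh replicate 3 in 7 of 9. Shh replicate 2 was the highest of its group in 7 of 9. The mean of the 9 genes ran from 7.71 in Wnt replicate 4 to 9.21 in Wnt replicate 2. It ran from 8.33 in Shh replicate 3 to 10.04 in Shh replicate 2, and from 6.53 to 6.85 over the hindbrain arrays. The gap to hindbrain follows from how the 9 genes were chosen. The same Wnt arrays marked the ends of the S phase list, 29 measured genes of DNA replication, whose mean ran from 7.28 in Wnt replicate 4 to 8.59 in Wnt replicate 2. In Shh that mean ran from 7.53 in replicate 3 to 8.69 in replicate 7, and in hindbrain from 6.93 to 7.18. Mki67, a marker of cycling cells, ran from 8.76 in replicate 4 to 10.46 in replicate 2 of Wnt, from 9.32 to 10.94 in Shh and from 6.32 to 7.46 in hindbrain arrays. Replicates have no order, and each point here comes from 1 array whose levels share RNA and processing.

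Endothelial markers were lower in Wnt than in hindbrain (16 of 16) and than in Shh (15 of 16). With the endothelial marker mean as a covariate, 3 histone genes (H1f5, H2ac15 and H2bc12) were called higher in Wnt than in hindbrain in place of 9. In the same fit 15 were called lower in Wnt than in Shh in place of 7. Marker means in Wnt arrays (9.81 to 11.10) overlapped neither those of hindbrain (11.51 to 11.89) nor those of Shh (11.28 to 11.79). These counts thus extrapolate beyond the marker levels measured in each group and cannot be read as corrected for cell content. The shares of all genes called in that fit are not given, so the changed counts cannot be read as particular to histone genes. Of 13 measured granule neuron precursor markers, genes of the cells from which Shh medulloblastoma arises, 12 were higher in Shh than in hindbrain (over all genes 18.9%). In Wnt 11 of the 13 were lower than in Shh (over all genes 17.8%). In Wnt minus hindbrain 4 of these markers were higher (over all genes 23.2%), 1 lower (22%) and 8 not called. Their mean per array ran from 6.94 to 7.36 in Wnt, 7.64 to 9.30 in Shh and 6.59 to 6.91 in hindbrain arrays, lowest in Shh replicate 3 and highest in Shh replicate 7 among Shh arrays. Atoh1, the factor that defines these precursors, averaged 5.63 in Wnt, 8.60 in Shh and 5.73 in hindbrain arrays. The part of these cells in the histone levels was not tested.

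**Figure D4:**
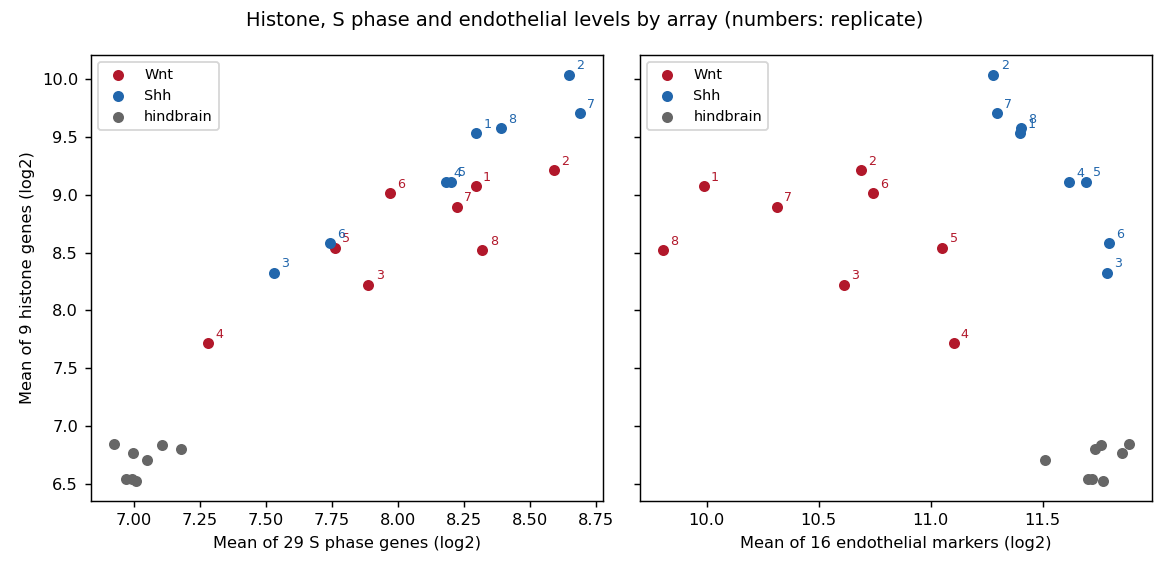
Mean log2 value of the 9 histone genes higher in both tumours (vertical axis) against the mean of 29 S phase genes (left) and of 16 endothelial markers (right), 1 point per array, numbered by replicate in the tumour groups. Hindbrain arrays lie between 6.53 and 6.85, at the bottom, which follows from choosing genes called higher in both tumours than in hindbrain. Wnt replicate 4 (7.71) and Shh replicate 3 (8.33) are the lowest tumour arrays on the histone axis within their groups.

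The genes that act with histones in S phase were mostly higher in both tumours. Of the 29 S phase genes, 27 were higher and 1 lower in Wnt, and 28 were higher and 0 lower in Shh. Their median differences were 0.89 in Wnt and 0.94 in Shh. Over all genes 23.2% were higher and 22% lower in Wnt, and 18.9% each in Shh. Pole, the catalytic subunit of a replicative polymerase, rose by 2.65 ± 0.25 in Wnt and 2.75 ± 0.25 in Shh, and Rrm2, a subunit of ribonucleotide reductase, by 2.6 ± 0.25 in Wnt and 2.30 ± 0.25 in Shh. The 1 lower gene in Wnt, named after its value was seen, was the sliding clamp Pcna, at -0.33 ± 0.11. All 19 genes of the G2 and mitosis list were higher in both tumours, Mki67 by 3.03 ± 0.24 in Wnt and 3.42 ± 0.24 in Shh. Between the tumours 1 S phase gene was higher in Wnt, Ccne1, the cyclin that opens S phase, by 0.48 ± 0.11, and 5 were lower. Over all genes 18% were higher and 17.8% lower in Wnt than in Shh.

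Of 16 genes that process histone mRNA, 2 were higher and 2 lower in Wnt (over all genes 23.2% higher and 22% lower), and 8 were higher and 0 lower in Shh (over all genes 18.9% each). Slbp, which binds the stem loop, differed by 0.09 ± 0.10 in Wnt (adjusted p = 0.506) and 0.20 ± 0.10 in Shh (adjusted p = 0.119). Npat, the coactivator of histone transcription, differed by -0.08 ± 0.08 in Wnt (adjusted p = 0.446) and rose by 0.22 ± 0.08 in Shh (adjusted p = 0.0241), and was lower in Wnt than in Shh by a log2 difference of -0.30 ± 0.08 (adjusted p = 0.003). Eri1, an exonuclease that trims the stem loop, rose by 0.51 ± 0.10 in Wnt and 0.75 ± 0.10 in Shh. Between the tumours 7 of the 16 were lower in Wnt and 1 higher (over all genes 17.8% and 18%). Cstf2, a cleavage stimulation subunit, was higher by 0.51 ± 0.06 in Shh and was not called in Wnt, at 0.09 ± 0.06.

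Of 19 measured chaperones and acetylase subunits, which carry new histones to DNA, 9 were higher and 2 lower in Wnt (over all genes 23.2% and 22%). In Shh 15 of the 19 were higher and 1 lower (over all genes 18.9% each). Asf1b, which hands H3 and H4 to chromatin assembly, rose by 1.81 ± 0.21 in Wnt and 1.77 ± 0.21 in Shh, and Chaf1b, a subunit of the assembly factor, by 1.54 ± 0.21 in Wnt and 1.73 ± 0.21 in Shh. Nasp, a chaperone of H1 and H3, was at -0.12 ± 0.12 in Wnt (adjusted p = 0.454) and rose by 0.44 ± 0.12 in Shh (adjusted p = 0.00662). Nasp was lower in Wnt than in Shh by a log2 difference of -0.56 ± 0.12 (adjusted p = 0.000758).

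Histone variants that cells also make outside S phase were set beside these genes. Of 8 measured, 5 were higher in Wnt (over all genes 23.2%) and 7 in Shh (18.9%), with 0 called lower in each (22% and 18.9%). At an unadjusted p under 0.05, 1 was lower in Wnt and 0 in Shh. H1f10, a linker histone made independently of DNA replication, rose by 2.68 ± 0.25 in Wnt (adjusted p = 2.65e-09) and 2.52 ± 0.25 in Shh (adjusted p = 2.42e-08). Cenpa, the H3 variant of the centromere, rose by 0.94 ± 0.17 in Wnt and 1.04 ± 0.17 in Shh, and H2ax, the variant marked at DNA breaks, by 0.92 ± 0.22 in Wnt and 1.40 ± 0.22 in Shh. H2az1, the variant at promoters, was at -0.15 ± 0.22 in Wnt and rose by 0.82 ± 0.22 in Shh. H2az1 and H2aj were the 2 variants lower in Wnt than in Shh, by log2 differences of -0.98 ± 0.22 and -0.82 ± 0.11.

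The probe sets that several histone genes share gave the signal of the copies the rule could not separate. There were 37 of them, and 3 repeated the values of another, which left 34. Of the 34, 9 were higher and 9 lower in Wnt (background 16.1% and 18.9% of probe sets), and 14 were higher and 3 lower in Shh (background 14.5% and 14.9%). Wnt minus Shh gave 0 higher, also at an unadjusted p under 0.05, and 11 lower (background 12.2% and 15.4%). Among the 9 H2A sets 6 were higher in each tumour and none was lower. Of 7 sets that name the same 10 H2A genes, 4 were higher in each tumour, with differences of -0.11 to 3.12 in Wnt (median 0.45) and 0.19 to 3.81 in Shh (median 0.46). The one with the largest difference ranged from 5.04 through 7.0 to 7.94 in Wnt, 5.96 through 7.57 to 8.57 in Shh and 2.92 through 3.53 to 4.39 in hindbrain arrays. Its groups did not overlap, and its hindbrain values lay below the ERCC 95th percentile, so the fitted differences of 3.12 ± 0.37 in Wnt and 3.81 ± 0.37 in Shh are not exact. Of 7 H2B sets 3 were higher and 1 lower in Wnt and 4 were higher in Shh. A set of 12 genes, H2bc12 among them, averaged 12.66 in Wnt, 12.93 in Shh and 11.22 in hindbrain arrays, a rise of 1.44 ± 0.13 in Wnt and 1.71 ± 0.13 in Shh.

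The H3 genes, which have no probe set of their own here, were seen through 12 shared sets. In Wnt 0 of these were called higher by limma (1 at an unadjusted p under 0.05) and 4 lower. In Shh 3 were higher and 1 lower. Over all probe sets 16.1% were higher and 18.9% lower in Wnt, and 14.5% higher and 14.9% lower in Shh. Several called sets had means over all arrays below the ERCC percentile of 5.24. They were sets at 3.16 and 3.91 lower in Wnt, sets at 3.02 and 3.21 higher in Shh, and the set at 3.91 lower in Shh. The other called sets lay above it, at 6.25 and 6.82 (lower in Wnt) and 8.64 (higher in Shh). Low signal limits what the differences of the dim sets can show. The set with the highest mean averaged 8.55 in Wnt, 8.86 in Shh and 8.53 in hindbrain arrays, with differences of 0.03 ± 0.12 in Wnt (adjusted p = 0.895) and 0.33 ± 0.12 in Shh (adjusted p = 0.0358). Of the 5 H4 sets 0 were higher and 3 lower in Wnt, and 1 was higher and 2 lower in Shh. Of 4 sets that name the same 13 symbols, 3 were lower in Wnt and 2 in Shh, with differences of -2.16 to 0.12 in Wnt (median -1.30) and -1.48 to 0.52 in Shh (median -0.54). The lowest of these ranged from 4.01 through 4.51 to 5.73 in Wnt, 4.25 through 5.33 to 6.46 in Shh and 6.54 through 6.74 to 6.98 in hindbrain arrays. It changed by -2.16 ± 0.29 in Wnt and -1.48 ± 0.29 in Shh, without overlap. A set of 6 H4 symbols that includes H4c1 and H4c17 went the other way in Shh, by 0.77 ± 0.15 (adjusted p = 0.000347). The only set with an H1 gene, H1f4 with 3 H2B genes, was lower in Wnt by a log2 change of -0.84 ± 0.20 and was at -0.06 ± 0.20 in Shh.

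**Figure D5:**
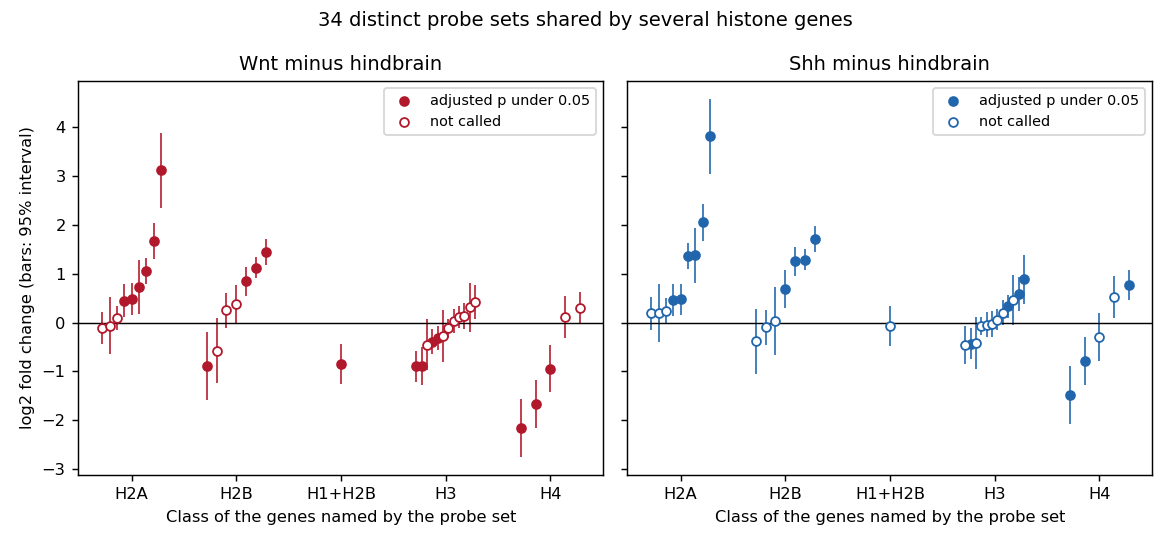
Log2 fold change, with 95% confidence interval, of the 34 distinct probe sets shared by several histone genes, by class, for Wnt minus hindbrain (left) and Shh minus hindbrain (right); filled points have an adjusted p under 0.05. H2A sets reach 3.12 in Wnt and 3.81 in Shh, and the lowest H4 set is at -2.16 in Wnt and -1.48 in Shh. These values are not exact, as both sets have arrays below the ERCC 95th percentile.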

How the data were processed

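The authors deposited log2 values, 1 per probe set and array, a scale read from their range. Partek 6.6 is named per the submitters' processing notes without its role, and the sources used here give no summarisation or normalization method. Per the labels' protocols biotinylated cRNA was made by the Affymetrix procedure. Its priming is not stated, which bears on histone mRNA without poly(A). Genes were probe sets with exactly 1 symbol, the one with the highest mean over 24 arrays per gene. A model with group as its factor was fitted with limma 3.58.1 in R 4.3.3 (lmFit, eBayes) over 22180 genes, and another over 41155 probe sets for the shared sets, with Benjamini-Hochberg adjustment, two-sided, at 0.05. The number of arrays limits the precision. The labels call the arrays biological replicates without naming animals, so p-values measure the spread between these samples.

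The members and gene lists were chosen with earlier results of these data known. Members with values named were, per class, the 3 with the smallest p in Wnt minus hindbrain, the 2 in Shh minus hindbrain and the brightest. H2ac1, H2ac20, H2bc9, H4c9 and others are given for completeness. From lists at most 3 genes with the smallest p in a comparison and a few set by name were used. Replicate numbers do not pair the arrays: deviations of same-numbered arrays correlated at -0.146 to 0.282, and 3 of 24 were over 0.1. Bounds written as at least a fold set arrays below the ERCC 95th percentile to it, a choice made after the data had been seen. The gene test recovered known shifts in simulated data. Alternatives were the mean of probe sets, quantile normalization, a common median, dropping dim genes, a trended variance, weighted arrays, compared groups alone, a replicate block, an endothelial covariate, and leaving out Wnt arrays 1 and 8 or each array. Promoters are from RefSeq, GRCm38.p6, and those of H2bc21 and H4c14 were not used here.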

Additional observations from a re-analysis of the deposited data

Results flagged for a closer look

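Of 78 values tested (26 genes in 3 groups of 8 arrays), 8 had 1 array far from the rest of its group, where chance gives about 1 in 20. Wnt replicate 1 was high for H1f3, at 7.04 with the next array at 5.65, for H2bc22, at 5.10, and for H4c8, at 3.84. Wnt replicate 4 was low for H4c17, at 5.16. Hindbrain replicate 8 was high for H2bc21, at 7.5, and for H2ac20, at 5.42, and low for H4c14, at 5.90. Hindbrain replicate 6 was high for H2ac12, at 3.03.

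For 7 of 26 genes the difference from hindbrain was itself different between the tumours, as tested by Wnt minus Shh in limma over all genes. Over all genes 35.8% were called in that comparison, 17.8% lower and 18% higher, so the count in either direction does not stand out. The log2 differences were -0.82 for H1f1, -0.92 for H1f2, -1.14 for H1f3, -1.02 for H1f5, -0.74 for H2ac21, -0.75 for H4c9 and -0.27 for H4c12.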

How the results depend on the processing

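Of 78 member results, 51 kept their call in every alternative run. Over the alternatives other than leaving out 1 array, 716 single-gene results had the same call, 26 became called and 10 lost the call. A further 1 both lost the call and changed sign. Results not called in either run count as the same call whatever their sign. For H2bc18 in Wnt minus hindbrain, for example, the difference ran from -0.74 to 0.28 over all alternatives. With the endothelial covariate the count of genes higher in Wnt than in hindbrain was 3 and the median over all members was -0.24. The count lower in Wnt than in Shh was 15 and that median -0.99. Marker means in Wnt overlapped those of neither other group, so these values extrapolate beyond the levels measured. Shares and medians over all genes are given for the main fit alone, so counts from the alternatives have no background beside them. H4c17 changed sign in Wnt minus hindbrain, at -0.22 (adjusted p = 0.802). The replicate block raised the count lower in Wnt than in Shh to 11, and the numbers do not pair the arrays. With a common median the Wnt median was -0.017. Without dim genes the Shh median was 0.96 over the 17 genes left, a filter that keeps genes dim in hindbrain and bright in tumours. The cause of these changes was not tested. A shift of arrays to a common median lowers Wnt minus hindbrain by 0.11 for every gene.

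With 1 array left out, the count higher than hindbrain was 9 in Wnt and 13 to 14 in Shh, and the count lower 2 to 3 in each. Wnt minus Shh gave 6 to 12 lower and 0 higher. The medians ran from 0.018 to 0.14 in Wnt, 0.41 to 0.54 in Shh and -0.45 to -0.29 in Wnt minus Shh. H2ac21 lost its call in Wnt minus Shh with the mean of its probe sets (adjusted p = 0.0723) and H1f1 with the compared groups alone (adjusted p = 0.0751). For the 9 genes below the ERCC 95th percentile, low signal limits what a difference can show.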
